A study of Homo sapiens with 6 samples.

Results

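Intermediate filaments are the cytoskeletal fibres built from a large family of coiled-coil proteins. This account covers 10 non-keratin genes of that family in A549, a human cell line established from a lung adenocarcinoma: the neurofilament genes NEFL, NEFM and NEFH, their partner INA, the stem and progenitor cell gene NES, SYNM, the mesenchymal filament gene VIM, and the lamin genes LMNA, LMNB1 and LMNB2. They were taken by symbol from a table of 58721 genes, and all 10 were among the 20713 genes that passed the filter on low counts and were tested. The family was chosen by the measured R98W and WT levels of its genes in these same libraries, so the values below describe it, and the number of its genes that changed supports nothing further.

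RNA-seq counts were available for 6 libraries, 3 labelled as A549 cells overexpressing KAT8 R98W and 3 labelled as A549 cells overexpressing wild-type KAT8 (WT), all from polyadenylated RNA of cells grown in serum-containing medium. KAT8, also called MOF, is a lysine acetyltransferase of histone H4, and R98W is an amino acid substitution in it; the series concerns the Tudor-knot domain of this protein. By its label every library came from cells with an overexpressed form of KAT8, no library without overexpression was used here, and the way the forms were introduced, the time after it and the number of clones are not stated in the labels. The libraries allow 1 comparison, R98W against WT, of the transcript levels under the altered and the normal form. The labels do not say whether replicates were separate cultures, so the spread behind each p-value may be technical.

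Library totals ran from 90007121 to 110152936 counts. KAT8 itself had 166, 196 and 236 CPM (counts-per-million, TMM-scaled) in R98W replicates 1 to 3, against 12.2, 195 and 184 CPM in WT replicates 1 to 3, so WT replicate 1 held 6.43% of the average level of the remaining WT pair. The KAT8 level of that library goes against its overexpression label, and its cells may not have overexpressed KAT8. Counts of changed genes are therefore also given without the library labelled WT replicate 1, and directions relative to WT rest on the labels. Mitochondrial ribosomal RNA took 1.47% to 1.57% of counts in R98W libraries and 0.905% to 1.04% in WT libraries, and its part in the results was not tested. Of the genes that define epithelial cells, KRT8 averaged 4377 CPM in R98W and 4441 CPM in WT, and KRT18 2838 CPM in R98W and 3106 CPM in WT, while EPCAM was low, averaging 3.92 in R98W and 7.10 CPM in WT. Markers of other cell types were low as lists: the summed level of 9 fibroblast markers was 28.35 to 28.98 CPM in R98W and 24.80 to 29.48 CPM in WT, most of it ACTA2 and COL1A1, and that of 7 leukocyte markers 9.19 to 10.83 CPM in R98W and 10.39 to 10.97 CPM in WT, most of it CD14 and ITGAM. The 6 endothelial markers summed to 0.214 to 0.372 CPM in R98W and 0.542 to 0.864 CPM in WT. POSTN of the fibroblast list and CD3E of the leukocyte list had 0 counts in all 6 libraries, and the part of other cell types in the results was not tested.

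Filament proteins share a central rod that pairs into coiled coils, and the pairing rules set which of them can copolymerise. NEFL is the core subunit of neurofilaments, NEFM and NEFH add the long side arms, and INA (alpha-internexin) assembles with them in neurons of the central nervous system. Nestin and synemin need a partner such as vimentin to form filaments, whereas lamins form a separate meshwork under the inner nuclear membrane. In epithelial tumour lines keratins are the usual cytoplasmic filaments, and vimentin is known there as a marker of a mesenchymal state.

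Promoter sequences, from 250 bases before to 50 bases after a transcription start, were found in the RefSeq table (GRCh38.p14) for 7 of the 10 genes. The pair of higher and the pair of lower genes with the largest changes among these 7 are shown, 5′ to 3′ on the strand of the gene, because they let the promoters of genes that went opposite ways be compared. Capitals mark the GC box GGGCGG, read on either strand, which was the one motif of those searched that these 4 promoters held.
INA: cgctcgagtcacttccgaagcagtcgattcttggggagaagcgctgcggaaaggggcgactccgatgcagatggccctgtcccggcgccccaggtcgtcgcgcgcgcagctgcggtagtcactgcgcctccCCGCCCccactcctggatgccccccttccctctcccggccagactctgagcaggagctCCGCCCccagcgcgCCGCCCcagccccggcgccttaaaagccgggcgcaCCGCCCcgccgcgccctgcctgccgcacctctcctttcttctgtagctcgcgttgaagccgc
VIM: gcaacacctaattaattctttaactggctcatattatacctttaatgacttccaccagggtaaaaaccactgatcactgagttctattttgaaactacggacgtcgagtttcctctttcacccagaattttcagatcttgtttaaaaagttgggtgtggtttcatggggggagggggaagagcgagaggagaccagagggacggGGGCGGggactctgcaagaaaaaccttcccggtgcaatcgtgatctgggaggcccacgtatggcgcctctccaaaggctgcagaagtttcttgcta
NES: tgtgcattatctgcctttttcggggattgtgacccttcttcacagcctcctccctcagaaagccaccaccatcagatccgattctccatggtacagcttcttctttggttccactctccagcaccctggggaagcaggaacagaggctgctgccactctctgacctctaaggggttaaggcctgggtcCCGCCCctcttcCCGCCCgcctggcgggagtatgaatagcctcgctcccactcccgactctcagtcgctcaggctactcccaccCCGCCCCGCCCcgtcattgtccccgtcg
LMNB2: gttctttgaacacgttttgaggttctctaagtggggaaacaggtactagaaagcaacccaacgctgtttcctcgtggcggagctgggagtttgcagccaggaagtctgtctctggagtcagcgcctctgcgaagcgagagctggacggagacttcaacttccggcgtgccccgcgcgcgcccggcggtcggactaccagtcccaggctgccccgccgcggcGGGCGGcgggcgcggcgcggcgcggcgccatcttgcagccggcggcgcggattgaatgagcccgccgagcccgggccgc
The INA promoter (chr10:103276888-103277187, plus strand) held 35 CpG dinucleotides and 4 GC boxes. The VIM promoter (chr10:17227991-17228290, plus strand) held 10 CpG dinucleotides and 1 GC box. The NES promoter (chr1:156677358-156677657, minus strand) held 14 CpG dinucleotides and 4 GC boxes, and the LMNB2 promoter (chr19:2456910-2457209, minus strand) 38 and 1. The median over all 35116 promoters of the table was 14 CpG dinucleotides, so the CpG-rich promoters (INA, LMNB2) and those near or under the median (NES, VIM) each include a gene from either direction. A GC box was present in 45.0% of all promoters of the table. Both strands were also searched for the letters TATAAA of the TATA box, present in 11.5% of all promoters, for CCAAT, present in 34.6%, for the AP-1 element TGACTCA, present in 4.95%, and for the cAMP response element TGACGTCA, present in 1.85%. None of these was found in the 4 promoters shown, which says only that the letters are not in these windows, and a match to the GC box is likewise a description of the sequence and not evidence of binding.

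Of the 10 genes, 5 were higher in R98W, 3 were lower and 2 did not pass the threshold, which was an adjusted p of 0.05 in the edgeR quasi-likelihood fit over all tested genes. In that fit 16.2% of all tested genes were higher, 18.5% were lower and 34.8% were called in either direction. These shares are the background for the count of every gene list below. The higher genes were NEFL, INA, VIM, LMNA and SYNM, and the lower genes were NES, LMNB2 and LMNB1. Leaving out WT replicate 1 gave 5 higher and 2 lower genes, since LMNB1 was no longer called. The median log2 fold change of the 10 genes was 0.19, against -0.0047 over all tested genes. R98W and WT libraries did not overlap for 7 of the 10, against 45.6% of all tested genes. In bulk RNA a change in the share of cells that express a gene and a change in the RNA per cell cannot be told apart.

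**Figure D1:**
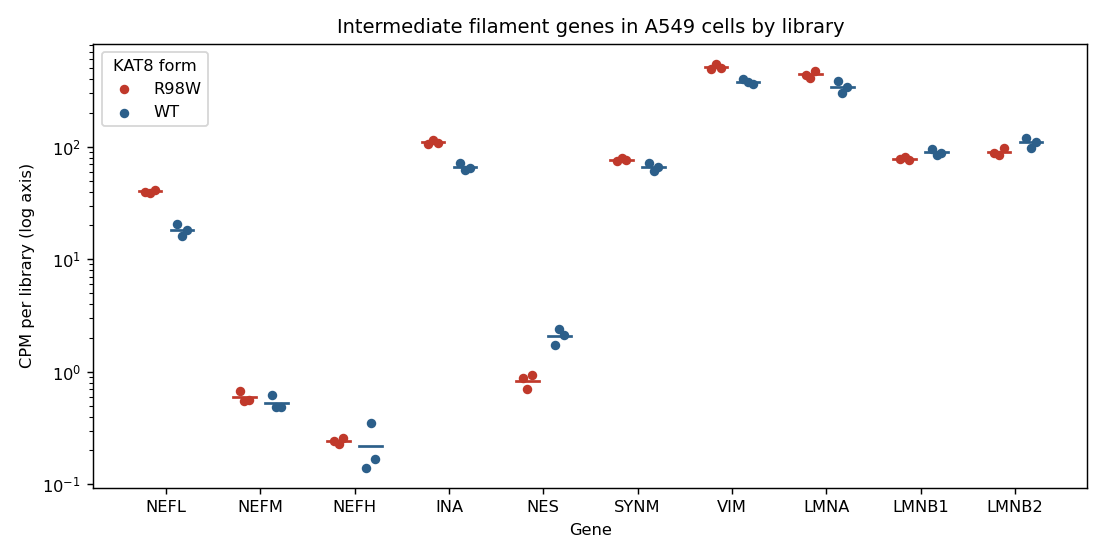
CPM of each filament gene in each library, on a log axis, with R98W points left of WT points and a bar at each group mean (n = 3). NEFL, INA and VIM sit higher in every R98W library than in any WT library, NES sits lower, and NEFM and NEFH stay under 1 CPM in all 6.

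Neurofilament and internexin genes were split into expressed members that were higher in R98W and barely expressed members that were not called. NEFL (ENSG00000277586, chromosome 8, 24950955 to 24957110 on hg38), the light subunit, had 40.1, 39.2 and 41.7 CPM in R98W replicates 1 to 3, against 20.4, 16.1 and 18.1 CPM in WT replicates 1 to 3. The lowest R98W library lay well above the highest WT library, which was WT replicate 1. The mean was 40.3 ± 1.3 CPM in R98W and 18.2 ± 2.2 CPM in WT (SD, n = 3 each), a 2.22-fold higher level in R98W and a log2 fold change of 1.15 (SE 0.09). Among the 3364 genes that were higher in R98W, 111 had a larger fold change than NEFL. No setting tried ended the NEFL call, and its log2 fold change ran from 1.06 to 1.23 over 18 alternatives.

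INA (ENSG00000148798, chromosome 10, 103277163 to 103290351) followed the same direction. It had 107, 116 and 109 CPM in R98W replicates 1 to 3, against 71.1, 62.0 and 65.4 CPM in WT replicates 1 to 3. The groups did not overlap, and again the highest WT library was replicate 1. Group means came to 111 ± 4.8 CPM in R98W and 66.2 ± 4.6 CPM in WT (SD, n = 3 each), a log2 fold change of 0.74 (SE 0.07). The next tested coding gene downstream, 12445 bases away, was PCGF6, a Polycomb group gene, which was lower in R98W, with 8.18 CPM in R98W and 10.1 CPM in WT on average and a log2 fold change of -0.30 (edgeR adjusted p = 0.0247, SE 0.10). The PCGF6 call ended without WT replicate 3.

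The side-arm subunits were close to silent. NEFM (ENSG00000104722, chromosome 8, 24913012 to 24919098), the medium subunit, had 66, 53 and 59 counts in R98W replicates 1 to 3 and 62, 56 and 46 counts in WT replicates 1 to 3, which overlap. That came to 0.593 ± 0.069 CPM in R98W and 0.531 ± 0.079 CPM in WT (SD, n = 3 each), with a log2 fold change of 0.16 (SE 0.29). NEFH (ENSG00000100285, chromosome 22, 29480230 to 29491390), the heavy subunit, had 24, 22 and 27 counts in R98W replicates 1 to 3 and 14, 40 and 16 counts in WT replicates 1 to 3, with a log2 fold change of 0.13 (SE 0.46). WT replicate 2 alone exceeded all R98W libraries for NEFH, and the sign of its fold change turned when WT replicate 1 or WT replicate 3 was left out. At these counts the SE of both genes was several times that of NEFL or INA, and smaller changes were not detectable. NEFM and NEFL lie 31857 bases apart on chromosome 8, so the gene that was 2.22-fold higher and the gene at under 1 CPM are neighbours.

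**Figure D2:**
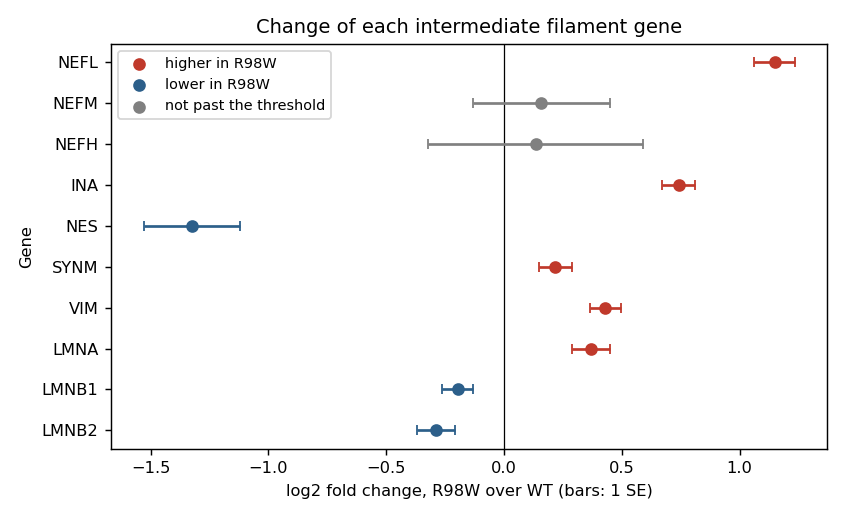
Log2 fold change of R98W over WT for each filament gene, with bars of 1 SE from the edgeR fit; red points passed the threshold as higher in R98W, blue points as lower, grey points did not pass. NEFL has the largest rise at 1.15 and NES the largest fall at -1.32.

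Nestin was lower in R98W, against the direction of the other called cytoplasmic genes. NES (ENSG00000132688, chromosome 1, 156668763 to 156677397), known from neural stem and progenitor cells, had 0.876, 0.702 and 0.929 CPM in R98W replicates 1 to 3, against 1.75, 2.41 and 2.13 CPM in WT replicates 1 to 3. These rest on 68 to 98 counts per R98W library and 174 to 277 counts per WT library. The groups did not overlap, and NES in R98W stood at 39.9% of its WT level, a log2 fold change of -1.32 (SE 0.21). Of the 3839 genes that were lower in R98W, 605 had a larger fall. NES belongs to a level class, 1 to 10 CPM, in which the median log2 fold change of all 4765 tested genes was -0.11 and 28.8% of them were lower. The call held under all 18 alternatives, with log2 fold changes from -1.45 to -1.20.

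Vimentin was the most abundant of the 10 genes and synemin the least changed of those called higher. VIM (ENSG00000026025, chromosome 10, 17228259 to 17237593) had 492, 543 and 501 CPM in R98W replicates 1 to 3, against 399, 381 and 361 CPM in WT replicates 1 to 3. The groups did not overlap, with means of 512 ± 28 CPM in R98W and 380 ± 19 CPM in WT (SD, n = 3 each) and a log2 fold change of 0.43 (SE 0.07). Abundant genes as a class were shifted upward: among the 3444 tested genes at 64 CPM or more, 40.4% were higher, 9.41% were lower and the median log2 fold change was 0.13. After a correction of each library for expression level the VIM value was 0.25 on the log2 scale and stayed past the threshold. VIM overlaps VIM-AS1 on the other strand, which had 1.21 CPM on average, so few of its reads could come from there.

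SYNM (ENSG00000182253, chromosome 15, 99098217 to 99135593), a large filament protein that binds vimentin and actin-linking proteins, had 75.1, 79.6 and 76.5 CPM in R98W replicates 1 to 3, against 71.5, 61.3 and 65.9 CPM in WT replicates 1 to 3. The groups were apart by a narrow margin, the lowest R98W library standing next to WT replicate 1. Its log2 fold change came to 0.22 (SE 0.07). This call ended without R98W replicate 2, WT replicate 2 or WT replicate 3, where the log2 fold change was 0.20, 0.16 and 0.21 in that order, and with the level correction, where it was 0.15.

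**Figure D3:**
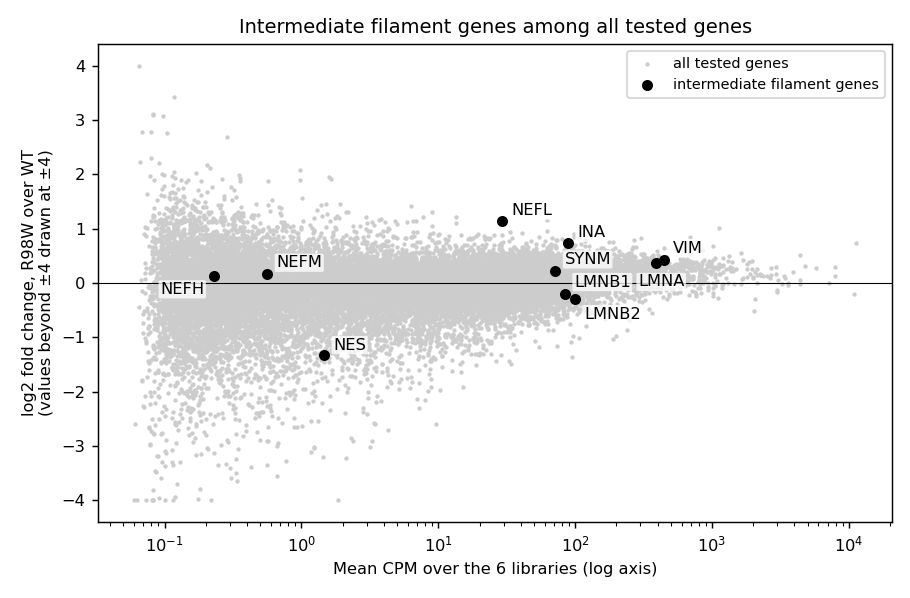
Log2 fold change of R98W over WT against mean CPM for all 20713 tested genes (grey) and the 10 filament genes (black, labelled); the x axis is logarithmic and values beyond 4 in either direction are drawn at 4. NEFL and INA lie at the upper edge of the cloud at their levels, LMNA and VIM lie in the abundant range where the cloud sits above 0, and NES lies in the lower part of the cloud.

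The lamin genes moved apart, the A-type gene up and the B-type genes down. LMNA (ENSG00000160789, chromosome 1, 156082573 to 156140089), which encodes lamins A and C from alternatively spliced transcripts that gene counts do not separate, had 438, 405 and 476 CPM in R98W replicates 1 to 3, against 381, 303 and 338 CPM in WT replicates 1 to 3. The groups did not overlap, with means of 440 ± 36 CPM in R98W and 341 ± 39 CPM in WT (SD, n = 3 each) and a log2 fold change of 0.37 (SE 0.08). After the correction for expression level the LMNA value was 0.19 on the log2 scale and the call ended.

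LMNB2 (ENSG00000176619, chromosome 19, 2427638 to 2456996), a B-type lamin that stays farnesylated and membrane-bound, had 87.4, 84.9 and 97.3 CPM in R98W replicates 1 to 3, against 121, 97.3 and 111 CPM in WT replicates 1 to 3. R98W replicate 3 and WT replicate 2 met at the edge, so the groups overlapped. Its mean was 89.9 ± 6.6 CPM in R98W and 110 ± 12 CPM in WT (SD, n = 3 each), a log2 fold change of -0.29 (SE 0.08), and the call ended without R98W replicate 2, at -0.25. LMNB2 overlaps TIMM13, a mitochondrial import gene, on its own strand; TIMM13 had 27.8 CPM on average and was not called, with a log2 fold change of 0.11 (SE 0.08).

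LMNB1 (ENSG00000113368, chromosome 5, 126776623 to 126837020), the other B-type lamin, had 77.2, 80.9 and 77.1 CPM in R98W replicates 1 to 3, against 96.3, 85.0 and 88.4 CPM in WT replicates 1 to 3. The groups did not overlap, although WT replicate 2 came near the R98W libraries. The log2 fold change was -0.20 (SE 0.07). Its call ended when any library but WT replicate 2 was left out, with log2 fold changes from -0.22 to -0.16 in those 5 fits. The corrections for GC content and for exon length ended it too, at -0.15 and -0.16. The fall of both B-type genes ran against the class of genes at 64 CPM or more, in which 9.41% were lower, and after the correction for expression level the values were -0.28 for LMNB1 and -0.39 for LMNB2.

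To compare genes with each other, CPM were divided by exon length in kilobases (RPKM). The length was that of all annotated exons of a gene merged, 5158 bases for VIM, 6985 for LMNA and 3231 for INA. The length of the transcripts expressed was not measured, so the order of genes and the size of each ratio between genes are approximate. Every ratio below uses the same lengths in R98W and WT. In R98W the order was VIM (99.3 ± 5.3 RPKM), LMNA (63.0 ± 5.1), INA (34.2 ± 1.5), LMNB1 (21.6 ± 0.59), LMNB2 (16.5 ± 1.2), SYNM (9.86 ± 0.29), NEFL (9.32 ± 0.30), NES (0.150 ± 0.021), NEFM (0.135 ± 0.016) and NEFH (0.064 ± 0.0038) RPKM (SD, n = 3). In WT the order was VIM (73.7 ± 3.7 RPKM), LMNA (48.8 ± 5.6), LMNB1 (24.7 ± 1.6), INA (20.5 ± 1.4), LMNB2 (20.2 ± 2.2), SYNM (8.47 ± 0.66), NEFL (4.20 ± 0.50), NES (0.377 ± 0.060), NEFM (0.121 ± 0.018) and NEFH (0.058 ± 0.030) RPKM (SD, n = 3). Neighbours in the order overlapped between libraries for SYNM and NEFL and for NES and NEFM in R98W, and for INA and LMNB2 in WT. INA stood above LMNB1 in all 3 R98W libraries and below it in all 3 WT libraries.

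The make-up of the filament transcripts followed from these shifts. It is given here as RPKM ratios within each library, whose sizes depend on the exon lengths used. For every 100 of VIM there were 9.71, 8.59 and 9.92 of NEFL in the R98W libraries, numbered 1 to 3, against 6.10, 5.03 and 5.96 in the WT libraries. INA per 100 of VIM was 34.5 ± 0.34 in R98W and 27.8 ± 1.6 in WT, and NEFL per 100 of INA was 27.3 ± 1.8 in R98W and 20.5 ± 1.0 in WT (SD, n = 3 each). None of these ratios overlapped between the groups, so NEFL was higher in R98W relative to INA, and INA relative to VIM. NEFL, NEFM, NEFH and INA together made up 28.6 ± 0.45% of the RPKM sum of the 7 cytoplasmic genes in R98W and 23.1 ± 1.0% in WT. NEFM and NEFH gave 0.457 ± 0.052% of the neurofilament and INA sum in R98W and 0.726 ± 0.13% in WT, so the transcripts of this class were almost all NEFL and INA in both groups.

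Among the lamins, LMNB1 and LMNB2 together reached 59.6, 65.3 and 57.4 per 100 of LMNA in the R98W libraries, numbered 1 to 3, against 89.3, 95.2 and 92.7 in the WT libraries, with no overlap. LMNB1 per 100 of LMNB2 overlapped, at 131 ± 12 in R98W and 123 ± 6.7 in WT (SD, n = 3 each). The summed lamin level also overlapped, at 101 ± 5.8 RPKM in R98W and 93.7 ± 9.3 RPKM in WT, while the summed level of the cytoplasmic genes did not, at 153 ± 6.9 RPKM in R98W and 107 ± 5.5 RPKM in WT.

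**Figure D4:**
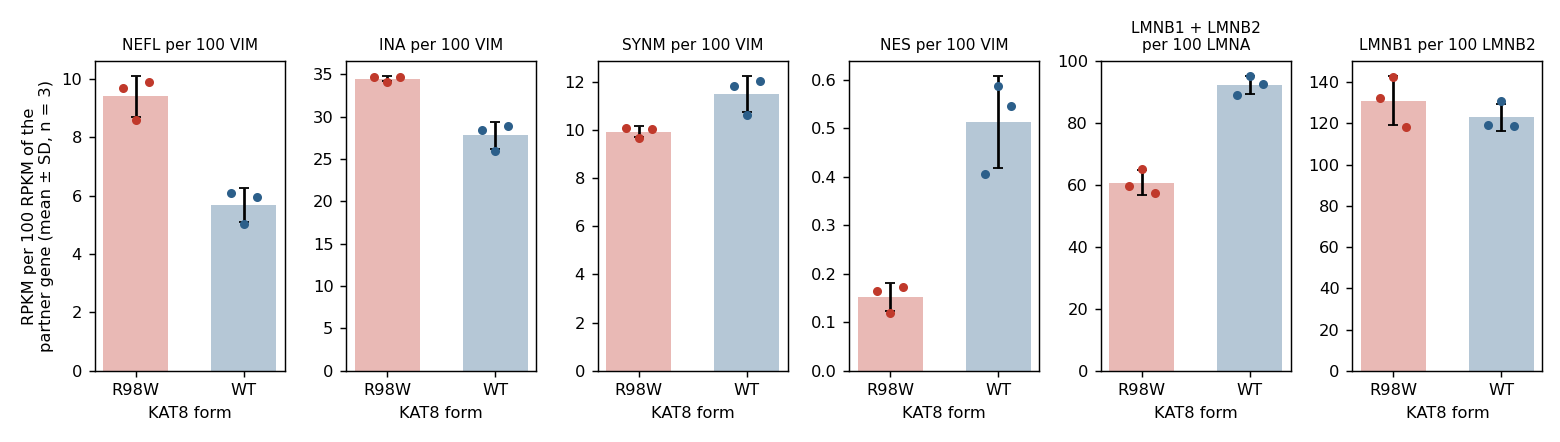
RPKM of a gene per 100 RPKM of a partner gene in each library; bars are group means, error bars 1 SD (n = 3) and points the libraries, with R98W left of WT and all axes starting at 0. The ratios of NEFL and INA to VIM are higher in R98W, those of SYNM and NES to VIM and of B-type lamins to LMNA are lower, and LMNB1 per LMNB2 overlaps.

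Other filament genes of the cytoplasm were few in these cells. Of DES, GFAP, PRPH, BFSP1 and BFSP2, 3 passed the filter, of which 1 was higher and 1 lower. BFSP1, which encodes the beaded filament protein filensin of the eye lens, had 23.4, 22.4 and 23.0 CPM in R98W replicates 1 to 3, against 13.2, 12.7 and 12.7 CPM in WT replicates 1 to 3, a log2 fold change of 0.83 (edgeR adjusted p = 2.89e-07, SE 0.08). PRPH, the peripherin gene of peripheral neurons, fell to 0.138 ± 0.084 CPM in R98W, against 0.359 ± 0.011 CPM in WT (SD, n = 3 each), with a log2 fold change of -1.36 (edgeR adjusted p = 0.0364, SE 0.49). That call ended without R98W replicate 2 or any WT replicate, with log2 fold changes from -1.40 to -0.94, and with the level correction, at -1.22.

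Keratins, the larger branch of the family, went both ways. Of 50 keratin genes 18 were tested, with 3 higher, 4 lower and a median log2 fold change of -0.15. KRT19, a simple-epithelium keratin, rose to 54.7 ± 3.0 CPM in R98W, against 39.4 ± 1.7 CPM in WT (SD, n = 3 each), a log2 fold change of 0.48 (edgeR adjusted p = 3.53e-05, SE 0.07). KRT15 rose by 1.05 and KRT4 by 0.54 on the log2 scale, and KRT222 fell to 0.198 ± 0.088 CPM in R98W, against 0.898 ± 0.19 CPM in WT. The hair keratin genes KRT81, KRT83 and KRT86 were lower, but they are near-identical copies whose reads are uncertain. Without WT replicate 1 there were 3 higher and 3 lower keratins, without R98W replicate 2 there was 1 lower, without R98W replicate 1 or WT replicate 3 there were 2 lower, and the level correction gave 7 lower. The abundant pair KRT8 and KRT18 did not pass, with log2 fold changes of -0.02 (SE 0.06) and -0.13 (SE 0.06), and their annotated spans overlap on opposite strands.

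Linker proteins that tie filaments to junctions and to other fibres were mostly not called. Of 11 tested plakin and linker genes 1 was higher and 3 lower, with a median log2 fold change of -0.0079. Filaggrin (FLG), which bundles keratin in skin, fell to 0.845, 1.19 and 0.966 CPM in R98W replicates 1 to 3, against 3.30, 2.95 and 2.53 CPM in WT replicates 1 to 3, a log2 fold change of -1.55 (edgeR adjusted p = 3.98e-06, SE 0.19). FLG overlaps FLG-AS1 on the other strand, which was also lower, and whether their reads were kept apart in counting is not known. The cornified envelope plakins PPL and EVPL had log2 fold changes of -0.39 (SE 0.10) and -0.31 (SE 0.09), and MACF1, which crosslinks actin and microtubules, 0.20 (SE 0.07). The EVPL call ended without R98W replicate 2 or WT replicate 3, and the MACF1 call without R98W replicate 1, R98W replicate 2 or WT replicate 3 and after the correction for expression level, where MACF1 stood at 0.04. Without WT replicate 1 the linker list had 4 higher and 3 lower, and without R98W replicate 1, R98W replicate 2 or WT replicate 3 it had 0 higher by edgeR. The corrections for GC content and exon length gave 3 higher. PLEC, the main vimentin linker plectin, had a log2 fold change of 0.17 (SE 0.10) and was not called; it is named outside the rule for named genes, after its value was seen.

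**Figure D5:**
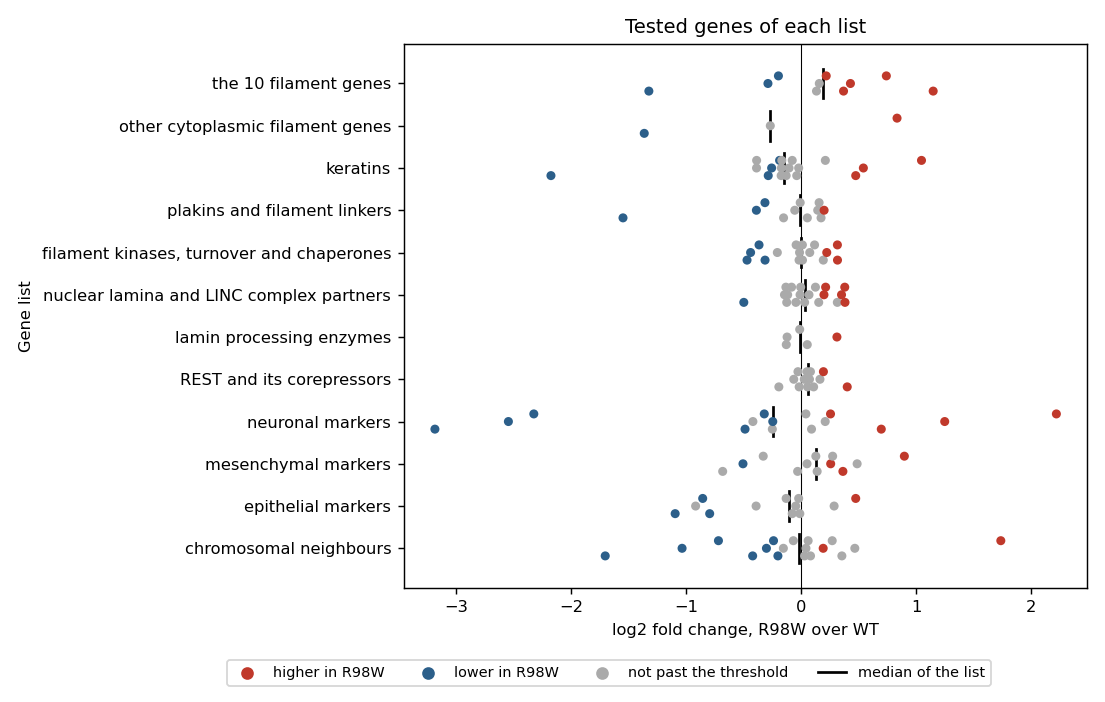
Log2 fold change of R98W over WT for the tested genes of each list, with red points higher in R98W, blue points lower, grey points not past the threshold, and a black bar at the median of the list. The fibroblast, endothelial and leukocyte lists are not drawn. Called genes lie on both sides of 0 in most of the lists drawn, and their medians stay between -0.27 and 0.19.

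Among the partners of the lamins at the nuclear envelope, 5 of 19 tested lamina and LINC complex genes were higher and 1 was lower, where 16.2% of all tested genes were higher and 18.5% lower. The median log2 fold change was 0.03, against -0.0047 over all tested genes. Without WT replicate 1 there were again 5 higher and 1 lower, but 3 were higher without R98W replicate 1, R98W replicate 2 or WT replicate 3, and after the level correction there were 3 higher and 2 lower. EMD, the lamin-binding protein emerin, rose to 63.1 ± 1.1 CPM in R98W, against 48.5 ± 2.7 CPM in WT (SD, n = 3 each), a log2 fold change of 0.38 (edgeR adjusted p = 0.00022, SE 0.07). SYNE1, which encodes the nuclear anchor nesprin-1, rose by 0.38, and TOR1AIP2, an activator of torsin ATPases in the endoplasmic reticulum, by 0.35. The lamin B receptor gene LBR and TMEM43 were higher too, with log2 fold changes of 0.20 (SE 0.08) and 0.21 (SE 0.06). Both of these calls ended without R98W replicate 1, R98W replicate 2 or WT replicate 3, and after the level correction. NRM, the inner membrane protein nurim, fell to 7.07 ± 0.15 CPM in R98W, against 10.0 ± 1.1 CPM in WT (SD, n = 3 each), a log2 fold change of -0.50 (edgeR adjusted p = 0.00139, SE 0.11). Of the 5 genes listed for the enzymes that process the lamin tail, 1 passed, FNTA, the shared alpha subunit of protein farnesyltransferase. It had 48.2 ± 0.71 CPM in R98W and 38.8 ± 0.54 CPM in WT and a log2 fold change of 0.31 (edgeR adjusted p = 0.00115, SE 0.07). FNTB, RCE1, ICMT and ZMPSTE24 lay between -0.13 and 0.05.

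Kinases and turnover factors of filaments showed 3 higher and 4 lower of 16 tested genes. PAK1, a kinase that phosphorylates vimentin, had 32.8, 33.3 and 30.0 CPM in R98W replicates 1 to 3, against 41.1, 48.3 and 43.8 CPM in WT replicates 1 to 3, a log2 fold change of -0.47 (edgeR adjusted p = 0.000104, SE 0.08), while its relative PAK2 rose by 0.32 (edgeR adjusted p = 0.00199, SE 0.07). CDK5, a neurofilament kinase, had a log2 fold change of -0.44 (SE 0.10). The small heat shock protein gene HSPB1 and the ubiquitin ligase gene STUB1 were higher, at 0.22 (SE 0.07) and 0.32 (SE 0.10), and TRIM2, a ubiquitin ligase that binds NEFL, was lower, at -0.37 (SE 0.13). CDK5 overlaps SLC4A2 on the other strand, a gene of 217 CPM on average, so the CDK5 reads are uncertain. SLC4A2 was not called, with a log2 fold change of 0.21 (SE 0.08). Leaving out WT replicate 1 gave 4 higher and 3 lower genes, and leaving out WT replicate 3 gave 1 higher and 3 lower.

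The repressor REST, which silences neuronal genes outside the nervous system, was not called, and neither were most of its corepressors. REST had 69.1 ± 2.9 CPM in R98W and 66.7 ± 6.1 CPM in WT (SD, n = 3 each), a log2 fold change of 0.05 (edgeR adjusted p = 0.636, SE 0.07), and is named after its value was seen. Of the 13 genes of this list 2 were higher. RCOR1, the corepressor CoREST, rose to 102 ± 4.4 CPM in R98W, against 77.0 ± 5.5 CPM in WT, a log2 fold change of 0.40 (edgeR adjusted p = 0.000175, SE 0.07). HDAC2, a histone deacetylase, had 0.19 (SE 0.06), a call that ended without R98W replicate 1, R98W replicate 2, WT replicate 1 or WT replicate 3, and under the corrections for level and GC content, at 0.08 and 0.12, so that without WT replicate 1 RCOR1 was the 1 gene called.

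Other neuronal markers went both ways. Of 23 listed markers 15 were tested, with 4 higher, 6 lower and a median log2 fold change of -0.25. UCHL1, a ubiquitin hydrolase abundant in neurons, had 590, 612 and 653 CPM in R98W replicates 1 to 3, against 501, 563 and 490 CPM in WT replicates 1 to 3, a log2 fold change of 0.26 (edgeR adjusted p = 0.00663, SE 0.07), which was 0.07 and not called after the correction for expression level; the call also ended without WT replicate 3, at 0.21. The neuron-specific enolase gene ENO2 fell to 33.6 ± 1.7 CPM in R98W, against 41.9 ± 2.7 CPM in WT, and the surface glycoprotein gene THY1 to 0.341 ± 0.058 CPM in R98W, against 2.01 ± 0.37 CPM in WT (SD, n = 3 each). ENO2 overlaps LRRC23 on its own strand, a gene of 13.5 CPM on average that was also lower, so the ENO2 reads are uncertain. ELAVL2, an RNA-binding protein gene of neurons, was lower in R98W at 0 to 0.031 CPM, against 0.116 to 0.243 CPM in WT, too few counts for a fold change. STMN2 had 0 counts in all libraries, and GAP43 and INSM1 had 1 count each over the 6. The summed level of the marker list ran from 709 to 769 CPM in R98W and from 610 to 683 CPM in WT, most of it UCHL1. SCG2, SYN1 and ELAVL3 were also higher, and SCG3, SYP and SNAP25 lower, each at a lower level than ENO2. Few reads stood behind ELAVL3, SCG3 and SYN1, with 40, 81 and 196 counts in that order over the 6 libraries. The list again had 4 higher and 6 lower genes without WT replicate 1. Leaving out WT replicate 3 gave 1 higher gene, leaving out WT replicate 2 or any R98W replicate gave 2, and leaving out R98W replicate 2 gave 3 lower genes.

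Markers of mesenchymal and epithelial states are set beside VIM. Of 12 mesenchymal markers 3 were higher and 1 lower. SNAI1, a transcription factor of epithelial-mesenchymal transition, rose to 4.84 ± 0.28 CPM in R98W, against 2.60 ± 0.52 CPM in WT, a log2 fold change of 0.90 (edgeR adjusted p = 0.000137, SE 0.15), and FBN1 and ZEB1 rose by 0.36 and 0.26. Fibronectin (FN1) fell to 1679 ± 215 CPM in R98W, against 2383 ± 209 CPM in WT, a log2 fold change of -0.51 (edgeR adjusted p = 0.000102, SE 0.08). Of 12 epithelial markers 1 was higher and 3 lower, and EPCAM fell by 0.86 (edgeR adjusted p = 0.000151, SE 0.15) whereas CDH1 had -0.01 (SE 0.07). CLDN7 fell by 1.10 and CLDN3 by 0.80 on the log2 scale; CLDN7 overlaps ELP5 on the other strand, and the CLDN3 call ended in 4 of the 6 fits that left out a library, with limma-voom and after the correction for expression level. The summed level of the mesenchymal list ran from 2010 to 2465 CPM in R98W and from 2641 to 3065 CPM in WT, and that of the epithelial list from 8008 to 8631 CPM in R98W and from 8620 to 8804 CPM in WT. The part of either cell state in the VIM difference was not tested. Without WT replicate 1 there were 4 higher and 1 lower mesenchymal and 1 higher and 2 lower epithelial genes, and the level correction gave 5 lower epithelial genes. Of the fibroblast, endothelial and leukocyte markers 5, 2 and 3 were tested, and 0 passed in either direction by edgeR, limma-voom or DESeq2, nor did any by edgeR at an unadjusted p of 0.05.

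The chromosomal neighbours of the 10 genes went both ways. The nearest tested protein-coding genes on each side, 18 in all apart from NEFL and NEFM themselves, held 2 higher and 7 lower genes, and 1 and 6 without WT replicate 1. Of all tested genes 16.2% were higher and 18.5% lower in the fit of all 6 libraries. The neighbour counts rest on single libraries: leaving out each in turn gave 0 to 1 higher and 2 to 6 lower neighbours, the 2 lower without WT replicate 3, and the level correction gave 1 and 3. On chromosome 8 the outer neighbours of the neurofilament pair were ADAM28, with a log2 fold change of -1.04 (edgeR adjusted p = 0.0429, SE 0.38) with averages of 0.242 CPM in R98W and 0.496 CPM in WT, and DOCK5, with 0.19 (edgeR adjusted p = 0.033, SE 0.07). Both calls ended in 4 of the 6 fits that left out a library and after the correction for expression level, where DOCK5 stood at 0.04. MEX3A, an RNA-binding protein gene that lies 575 bases from LMNA, fell to 1.54 ± 0.27 CPM in R98W, against 5.02 ± 0.85 CPM in WT (SD, n = 3 each), a log2 fold change of -1.70 (edgeR adjusted p = 4.12e-07, SE 0.17), while LMNA beside it was higher. On the other side of LMNA, SEMA4A was higher, with 0.195 CPM in R98W, against 0.057 CPM in WT on average, a log2 fold change of 1.74 (edgeR adjusted p = 0.0267, SE 0.59). The SEMA4A call rests on 77 counts over the 6 libraries. Among the fits that ended it were those without WT replicate 1 and without R98W replicate 3. CRABP2 next to NES, TRDMT1 next to VIM and AP1B1 next to NEFH had -0.72, -0.42 and -0.20, and each lost its call in 3 or more of the fits that left out a library.

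The genes whose log2(CPM + 1) pattern over the 6 libraries was most like that of NEFL were MTHFD2, RHEB, DSTN, MB21D2 and MBP, with Pearson correlations of 0.999 for MTHFD2 and RHEB and 0.998 for the other 3. MTHFD2 is a mitochondrial folate enzyme, RHEB a GTPase that activates mTORC1 and DSTN the actin-depolymerising protein destrin. The 6 points share the step between the R98W and WT libraries, and of 12158 protein-coding genes at 1 CPM or more, 947 reached 0.95. DSTN had 1243 ± 13 CPM in R98W and 777 ± 57 CPM in WT (SD, n = 3 each), and MTHFD2 had 238 ± 5.4 CPM in R98W and 142 ± 9.9 CPM in WT.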

How the data were processed

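The deposited table holds raw counts per gene for the 6 libraries, whole numbers with no normalisation. CASAVA 1.8, HISAT2 2.1.0, HTSeq 0.11.3 and the build hg38 are named, without roles, in the submitters' processing notes. Neither the annotation nor the strand setting used for counting is given in the sources used here. Whether reads of genes that overlap on opposite strands were kept apart is therefore not known. Groups came from the sample titles. All 58721 gene identifiers matched GENCODE release 29, which gave positions, biotypes and union exon lengths for RPKM; symbols are current ones.

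Genes were kept by filterByExpr (minimum count 10, minimum total 15), scaled by TMM and tested for R98W over WT in all 6 libraries with the edgeR 4.0.16 quasi-likelihood test in R 4.3.3, without covariates, with Benjamini-Hochberg adjustment over 20713 genes. Standard errors come from the test statistic. CPM use TMM-scaled totals. The biological coefficient of variation was 10.0%. The alternatives used DESeq2 1.42.0 and limma 3.58.1 (voom), among others. The steps were tested on simulated data.

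Named genes were the 10 members, KAT8, the 4 called genes of each list with the smallest p, the neighbours of NEFL and NEFM, and the 5 genes most like NEFL; others are marked where they appear, apart from the check of markers. PCGF6, SEMA4A and the further called genes of the lists were named after their values were seen. A gene that the rule names is not reported here. The members and lists were chosen with earlier results of these data known. Replicate numbers did not pair the samples. Replicates of a group differed by more than sampling noise, at a chi-square per gene of 16.4 to 41.1.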

Additional observations from a re-analysis of the deposited data

How the results depend on the processing

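All 10 members kept the sign of their log2 fold change over the alternatives that could be run (scaling by DESeq2 size factors or the upper quartile, no filter, at least 50 counts in 3 libraries, each library left out, the replicate block, limma-voom, DESeq2, a threshold of 0.01, a minimum fold, and loess corrections for expression level, GC content and exon length), except NEFH, which is not tested under the filter of 50 counts and ran from -0.11 to 0.64. The members called higher numbered 3 after the correction for expression level, against 5 in the fit reported. With a minimum fold of 2 they numbered 1 higher (NEFL) and 1 lower (NES), and over all genes 155 higher and 1005 lower, against 3364 and 3839. At a threshold of 0.01, 2143 genes were higher. Leaving out each library in turn gave 4 to 5 higher and 1 to 3 lower members, the 1 without R98W replicate 2, and 2340 to 3268 higher and 3060 to 3944 lower genes. The replicate number marks no shared source in the labels, and same-numbered samples correlated by 0.0056, -0.039 and -0.037 in their deviations from the group means; with the replicate block 5 members were higher and 3 lower, and 3205 genes were higher and 3678 lower, and of the named genes KAT8 alone changed its side of the threshold, at a log2 fold change of 1.22. NEFM and NEFH, under 70 counts per library, limit what can be said of the side-arm subunits.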
